A study of Mus musculus with 10 samples.

Results

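The glypicans and syndecans are families of cell surface proteins that carry heparan sulfate. Their transcripts were followed in cultured adipose stem and precursor cells (ASPCs) given FICZ, a photoproduct of tryptophan that binds the aryl hydrocarbon receptor (AHR). The members are the 10 genes of both families by symbol, Gpc1 to Gpc6 and Sdc1 to Sdc4, of 25229 rows in the count table. ASPCs were sorted as CD45-CD31-Pdgfra+ cells from perigonadal white adipose tissue of WT mice, grown to confluence without passage in a medium that held FGF, and lysed 6 hr after treatment. There were 5 libraries from cells given the vehicle DMSO and 5 from cells given 100 nM FICZ, numbered 1 to 5 in each group. The age of the mice and the number of mice behind a library are not given in the sources used here. Nothing in them says that the libraries of a group came from separate cultures, so the p-values measure the spread between these libraries, which may be technical.

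Heparan sulfate is a long, sulfated sugar chain that binds growth factors, morphogens, chemokines, lipases and matrix proteins and presents them to their receptors. Glypicans are held on the outer leaflet of the membrane by a lipid (GPI) anchor and can be shed as whole cores. Syndecans cross the membrane once and pass signals inward through a short tail that binds PDZ-domain proteins and kinases. In adipose tissue both families are known as sites where lipoprotein lipase, FGF and WNT ligands are held near precursor cells.

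Libraries held 38328611 to 50210111 counts in total. A floor of 3 counts then equals between 0.0603 and 0.0787 CPM (counts scaled to the library total corrected by TMM factors), which covers counting error only. Summed over 10 ASPC markers, Pdgfra and Pdgfrb among them, the libraries held between 5018 and 7693 CPM. The 8 macrophage markers summed to between 24.6 and 51.1 CPM. Markers of hepatocytes, a list of 12 genes with none at 0, summed to between 1757 and 2382 CPM in FICZ and between 1638 and 9540 CPM in DMSO, and DMSO replicate 5 was the highest. All 12 had negative log2 fold changes (median -1.12) and none passed the threshold in edgeR, where 11 had an unadjusted p at or under 0.05 (3.49% of all genes tested were lower at that p). Blocked by replicate number, 0 of the 12 had such a p in edgeR (2.17% of all genes were lower), and 0 passed the threshold. Summed levels were 64.5 to 86.9 CPM for 5 endothelial, 68.1 to 111 CPM for 6 mesothelial, 4.16 to 21.9 CPM for 5 mature adipocyte (Lep at 0) and 196 to 512 CPM for 4 mural markers. Most of the endothelial, mesothelial and mural sums came from Tek, Wt1 and Acta2, with DMSO means of 64.5, 68.1 and 290 CPM. The next highest genes of these lists, Kdr, Krt8 and Des, had DMSO means of 6.65, 12.1 and 49.4 CPM. The AHR target Cyp1a1 had between 11.6 and 42.9 CPM with DMSO and between 144 and 355 CPM with FICZ, so every FICZ library lay above every DMSO library. Cyp1a1 (adjusted p = 0.0189), Ahrr (0.00324) and Tiparp (0.0335) passed the threshold of 0.05 with edgeR, and Cyp1b1 (0.147) did not. Blocked by replicate number, Tiparp was just outside the threshold (adjusted p = 0.0509 in edgeR), while Cyp1a1 (5.6e-05) and Ahrr (0.00506) were inside it.

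The 4 syndecan genes diverge along most of their coding sequence but share its end, which encodes the PDZ-binding tip of the tail. The last 60 coding bases of the longest coding transcript in GENCODE M21 (GRCm38), without the stop codon, are shown because they make the kinship within the family visible. Capitals mark the 13 positions with the same base in all 4 genes.
Sdc1: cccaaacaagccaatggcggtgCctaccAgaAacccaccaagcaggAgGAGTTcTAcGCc
Sdc2: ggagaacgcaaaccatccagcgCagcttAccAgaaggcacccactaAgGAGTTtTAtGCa
Sdc3: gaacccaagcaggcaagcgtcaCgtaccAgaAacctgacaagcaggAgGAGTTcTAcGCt
Sdc4: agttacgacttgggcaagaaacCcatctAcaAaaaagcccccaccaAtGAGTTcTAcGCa
Of the last 12 bases 9 were the same in all 4 genes, against 4 of the 48 bases before them. Sdc1 and Sdc3 were the most alike pair, with 61.7% of the 60 bases identical, followed by Sdc2 and Sdc4 with 30 of 60. No stretch of 50 bases was shared between transcripts of 2 syndecans, or of 2 glypicans, so reads of that length that match without error would not be split between members.

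Per length of exon the syndecans were the more abundant family. In CPM per kilobase of exon, the 4 syndecans summed to 176 ± 14.8 in DMSO and 181 ± 20.9 in FICZ, and the 6 glypicans to 81.6 ± 5.59 and 88.8 ± 5.00 (SD, n = 5 libraries each). The ratio of the syndecan sum to the glypican sum was 2.17 ± 0.299 in DMSO and 2.05 ± 0.329 in FICZ. These sums are given as a description, without a test, because the members were chosen with results of these libraries known.

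The order of levels per length, over all 10 libraries, ran from Sdc4 (mean 69.7 CPM per kilobase) through Sdc2 (53.2), Sdc1 (45), Gpc1 (34.7), Gpc3 (26.1), Gpc4 (15.7), Sdc3 (10.6) and Gpc6 (8.37) to Gpc2 (0.364). Gpc5 came last, with no count in any DMSO library and at most 3 counts in a FICZ library, which is at the floor. Sdc4 exceeded Sdc2 in 8 of the 10 libraries and Sdc2 exceeded Sdc1 in 9, and the ranges of these neighbours overlapped. Sdc1 lay above Gpc1, and Gpc1 above Gpc3, in all 10 libraries, although their ranges over libraries overlapped. The range of Gpc3 lay above that of Gpc4, and that of Gpc4 above that of Sdc3. Sdc3 exceeded Gpc6 in 9 libraries with overlapping ranges, and Gpc6 was 23.0-fold above Gpc2. Levels per length rest on all annotated exons of a gene, so a gene with unused exons is placed too low.

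**Figure D1:**
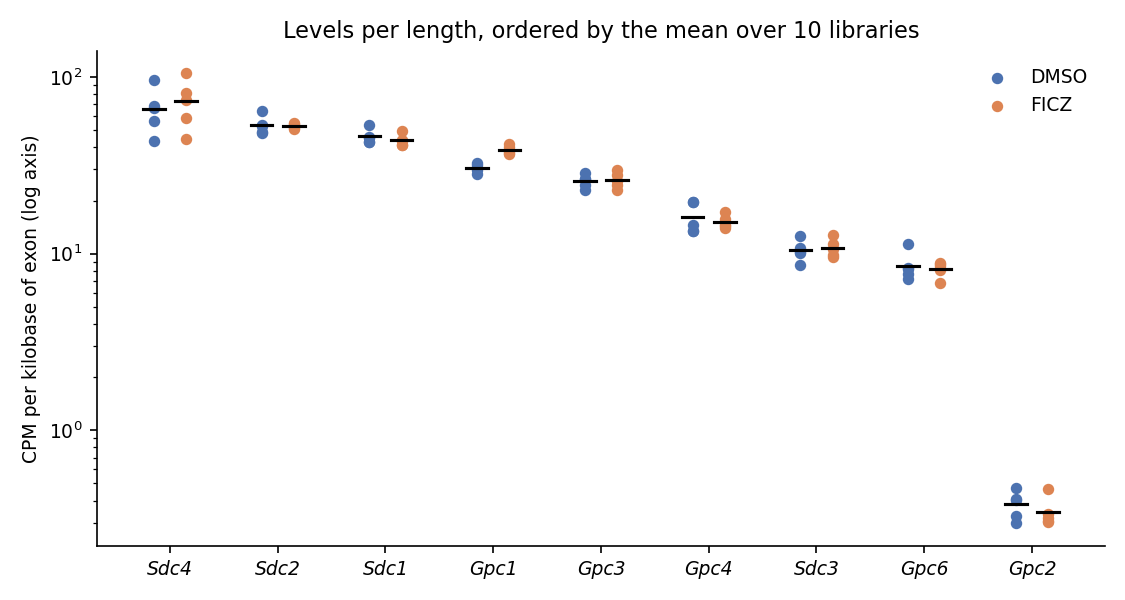
Each point is 1 library, in CPM per kilobase of exon on a log axis, for DMSO (blue) and FICZ (orange), and black bars are the means of 5 libraries. Gpc5 is left out because most of its values are 0. Sdc4 has the highest mean (69.7 over all 10 libraries) and the widest spread, and Gpc2 (0.364) lies far below the other 8 genes.

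Of the 5 glypicans tested, Gpc1 had the largest log2 fold change between treatments. It encodes the glypican best known for enhancing FGF signalling, and lies on chromosome 1 (chr1:92831645-92860779 of GRCm38, plus strand). Its level was 169, 159, 154, 164 and 145 CPM in DMSO replicates 1 to 5, and 207, 190, 192, 197 and 216 CPM in FICZ replicates 1 to 5. Every FICZ library was above every DMSO library, and the means were 158 ± 9.12 CPM with DMSO and 200 ± 10.6 CPM with FICZ (SD, n = 5 each). Over the genes tested, 0.351% had FICZ libraries that all lay above the DMSO libraries. The log2 fold change of Gpc1 was 0.34 (standard error 0.07), a ratio of 1.27 with a 95% interval from 1.14 to 1.41.

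Over all genes tested, this difference did not pass the threshold in edgeR's quasi-likelihood test (adjusted p = 0.636, unadjusted p = 0.000446). No member passed there, where 0.0211% of the 14251 genes did, and at an unadjusted p of 0.05 only Gpc1 was higher, against 1.33% of the genes. Blocked by replicate number no member passed either, against 0.0561% of the genes, and Gpc1 had an adjusted p of 0.568 in edgeR. DESeq2 placed 1 member past the threshold, Gpc1 (adjusted p = 0.00343), against 0.0845% of the genes it tested. DESeq2 with the block did not (adjusted p = 0.0803 for Gpc1, against 0.140% of the genes past the threshold). An exact permutation of the library labels (two-sided, on log2 CPM) gave p = 0.00794 for Gpc1, the smallest that 5 libraries against 5 allow. These arrangements ignore the replicate number, and swaps within 5 pairs could not give a two-sided exact p below 0.0625. A heatmap in the paper, drawn from these same libraries, shows Gpc1 among the genes raised by FICZ, although the paper's text does not name it, so none of these values is independent evidence of its direction.

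Within the same-numbered pairs of libraries the log2 difference of Gpc1 was 0.29, 0.26, 0.32, 0.26 and 0.57 for pairs 1 to 5. Pair 5 had the largest difference, since DMSO replicate 5 was the lowest DMSO library and FICZ replicate 5 the highest FICZ library. When DMSO replicate 5, the library with most hepatocyte transcripts, was left out, the log2 fold change was 0.31. Ankmy1, on the other strand, shares 977 of the 5159 bases in Gpc1 exons. Ankmy1 itself had at most 10 counts in any library, against at least 6434 for Gpc1, and the strand setting of the counting is not given in the sources used here.

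**Figure D2:**
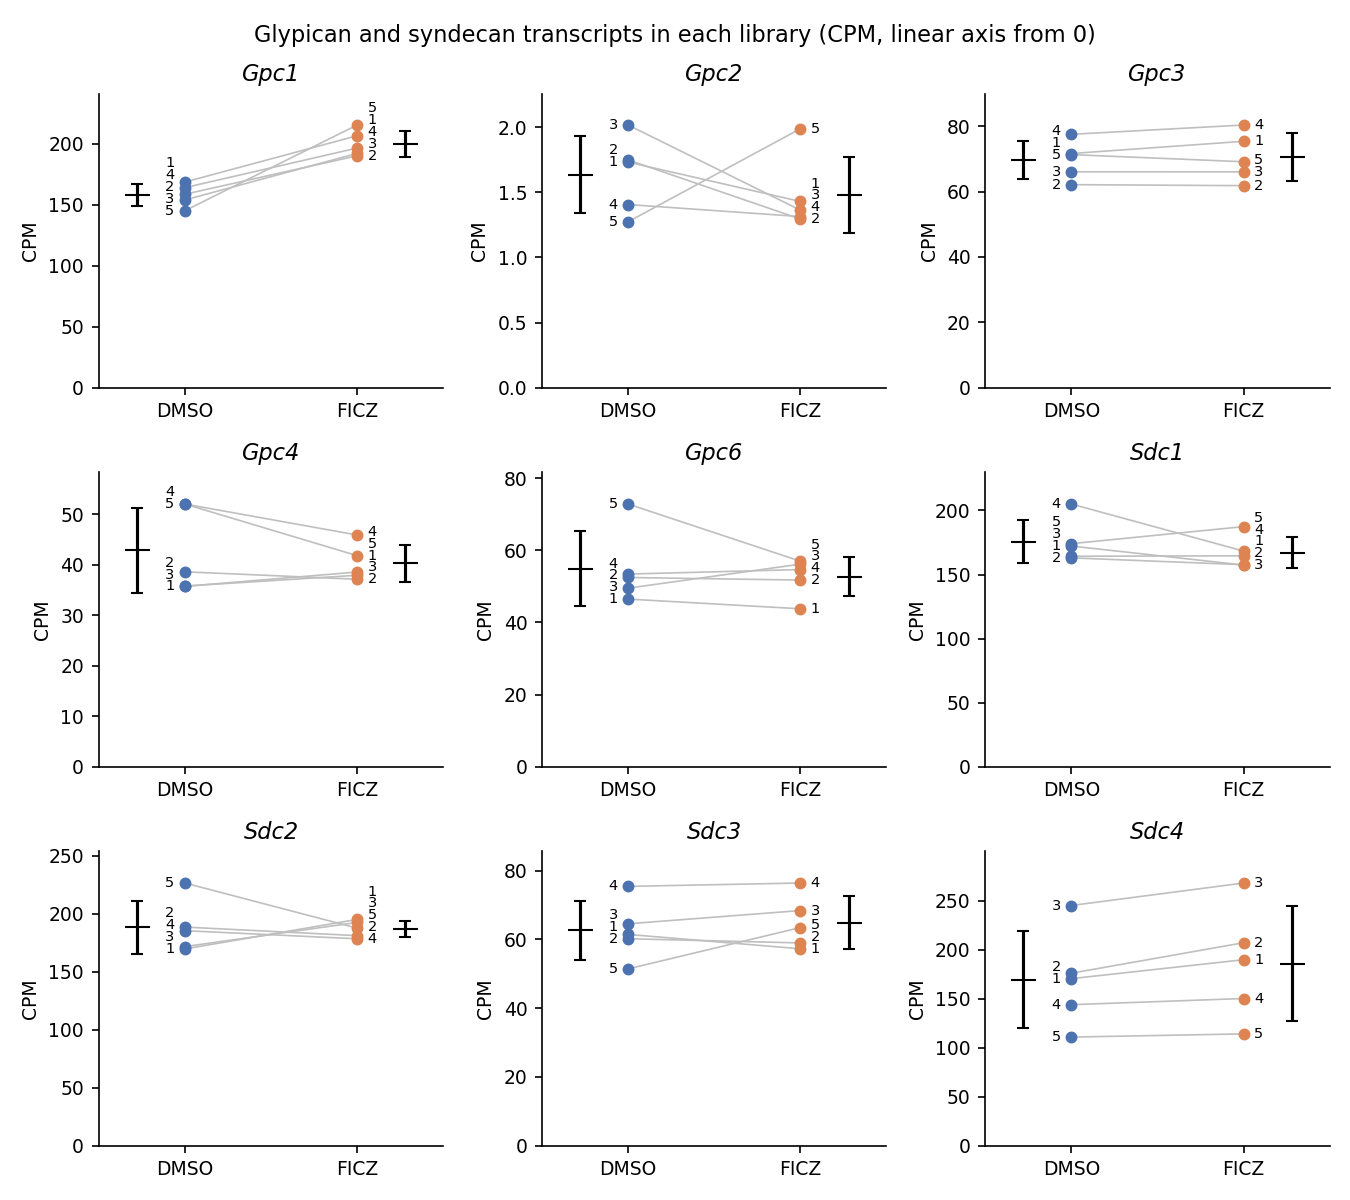
CPM of the 9 members above the filter on low counts in each library (vertical axes, linear and starting at 0), with DMSO in blue and FICZ in orange. Digits are replicate numbers, shifted upward where points crowd, grey lines join libraries of the same number, and black bars with whiskers are the mean and SD of 5 libraries. The Gpc1 groups do not overlap (at most 169 CPM in DMSO, at least 190 in FICZ), and the Sdc4 lines run nearly parallel over a wide range.

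As a share of the glypican sum per length, Gpc1 made up 37.7 ± 3.33% in DMSO and 43.8 ± 1.90% in FICZ (SD, n = 5 each). The highest DMSO library (40.7%) and the lowest FICZ library (40.5%) overlapped slightly. Gpc3 held 31.7 ± 1.27% and 29.5 ± 1.86%, and Gpc4 19.7 ± 2.68% and 17.1 ± 0.804%. A larger share of Gpc1 lowers the other shares by arithmetic.

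The other glypicans had intervals that included no difference. Gpc3 is known for binding Hedgehog and WNT ligands and, when mutated, for overgrowth. It had between 62.1 and 77.5 CPM with DMSO and between 61.8 and 80.3 CPM with FICZ, with a log2 fold change of 0.02 (95% interval -0.18 to 0.22, adjusted p = 0.999 in edgeR). Gpc4, its neighbour on chromosome X on the same strand, lies 107173 bases away with no protein-coding gene in between. Gpc4 had 35.7, 38.6, 35.8, 52.0 and 52.0 CPM in DMSO replicates 1 to 5, and 38.5, 37.1, 37.9, 45.9 and 41.8 CPM in FICZ. Replicates 4 and 5 were high in both groups, and the log2 fold change of -0.09 had a 95% interval from -0.37 to 0.19.

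Gpc6, a glypican with a role in bone growth, showed a single high library. Its level was 46.5, 52.5, 49.5, 53.4 and 72.8 CPM in DMSO replicates 1 to 5, and 43.8, 51.7, 56.2, 54.7 and 57.0 CPM in FICZ. DMSO replicate 5 stood apart from the other 9 libraries. The log2 fold change was -0.06 (95% interval -0.33 to 0.21), and without DMSO replicate 5 it was 0.06. Hepatocyte markers were also highest in that library (Alb, the albumin gene, had 4782 CPM there and between 682 and 1921 CPM elsewhere). The sums of macrophage (51.1 CPM) and mesothelial markers (111 CPM) were highest there too. Those of ASPC, endothelial, mature adipocyte and mural markers were highest in other libraries. The part of such transcripts in the level of Gpc6 was not tested.

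Gpc2, a glypican of the developing nervous system, was low, with between 54 and 88 counts per library. It had 1.73, 1.75, 2.02, 1.41 and 1.27 CPM in DMSO replicates 1 to 5 and 1.43, 1.29, 1.36, 1.31 and 1.99 CPM in FICZ. The groups overlapped, and Gpc2 was lower with FICZ in 4 pairs and higher in pair 5. Its log2 fold change of -0.15 had the wide 95% interval from -0.58 to 0.29, and 2376 of its 4274 exonic bases are also annotated to Gm43720 on the same strand. No row of the deposited counts is named Gm43720. Gpc5, which lies 400135 bases before Gpc6 on chromosome 14, had 3 counts in FICZ replicate 1, 1 in FICZ replicate 5 and 0 elsewhere. A change in Gpc5 was not detectable at this depth, and it was the 1 member of 10 that the filter on low counts removed.

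Among the syndecans Sdc4, a part of focal adhesions that signals through protein kinase C alpha, varied most from library to library, with a coefficient of variation of 29.3% in DMSO and 31.4% in FICZ. It had 170, 176, 245, 144 and 111 CPM in DMSO replicates 1 to 5, and 190, 207, 268, 150 and 114 CPM in FICZ replicates 1 to 5. Replicate 3 was highest and replicate 5 lowest in both groups, a range of more than 100 CPM, while the means were 169 ± 49.6 CPM and 186 ± 58.4 CPM (SD, n = 5 each). Without the block the log2 fold change of Sdc4 was 0.13 with a 95% interval from -0.39 to 0.66, and it was -0.03 when FICZ replicate 3 was left out. Inside the pairs Sdc4 was higher with FICZ in 5 of 5, by between 0.04 and 0.23 on the log2 scale, and 4.32% of the genes tested were higher in all 5 pairs. With the replicate block its log2 fold change was 0.12 (95% interval -0.01 to 0.26, unadjusted p = 0.0698, adjusted p = 0.929 in edgeR), so the blocked interval still included 0. Sdc4 lies on chromosome 2 (chr2:164424247-164443887, minus strand).

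Sdc1, the syndecan of epithelia and a receptor for lipoprotein remnants in liver, had between 163 and 205 CPM with DMSO and between 157 and 187 CPM with FICZ. The log2 fold change was -0.07 (95% interval -0.26 to 0.11). Sdc2, the main syndecan of fibroblasts and other mesenchymal cells, had 170, 189, 172, 185 and 227 CPM in DMSO replicates 1 to 5 and 195, 181, 193, 178 and 188 CPM in FICZ. Like Gpc6, Sdc2 was highest in DMSO replicate 5, and the part of the hepatocyte transcripts in this was not tested. The log2 fold change of Sdc2 was -0.01 (95% interval -0.20 to 0.18), and 0.06 without that library. Sdc3, first known from nerve tissue, had between 51.4 and 75.4 CPM with DMSO and between 57.3 and 76.4 CPM with FICZ, with a log2 fold change of 0.05 (95% interval -0.19 to 0.30). For these 3 genes the groups overlapped, and their 95% intervals reached from -16.4% (lower end, Sdc1) to 22.8% (upper end, Sdc3).

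**Figure D3:**
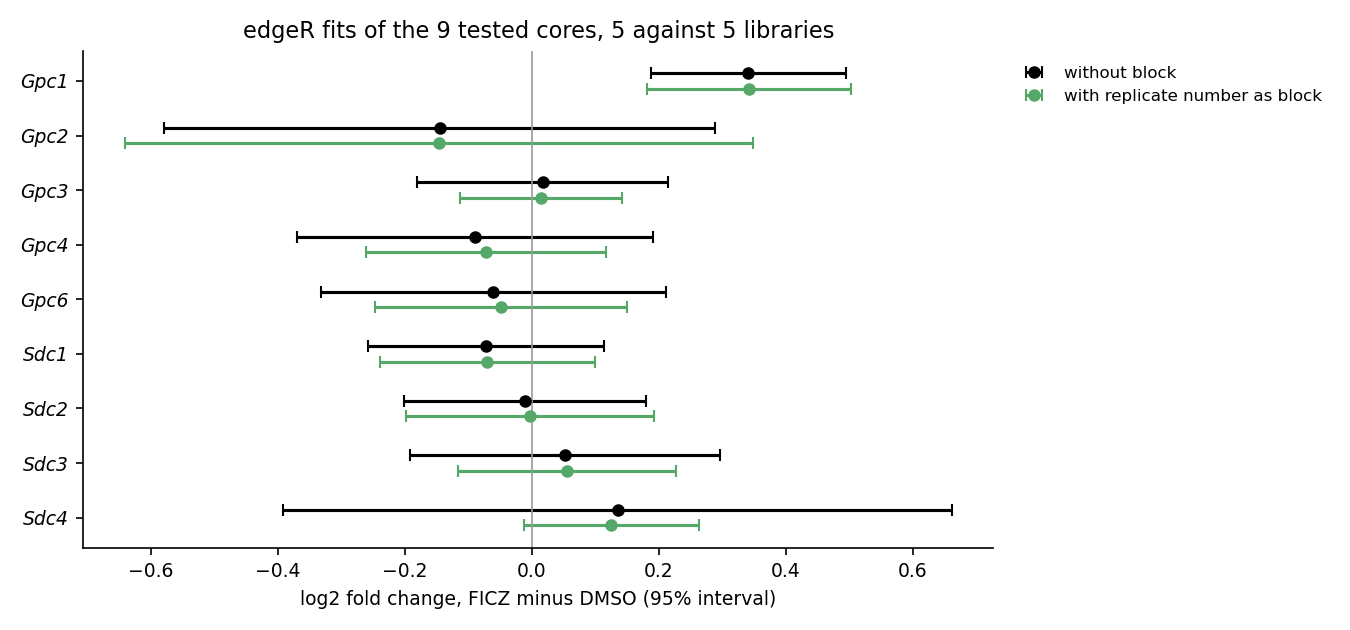
Log2 fold changes (FICZ minus DMSO, horizontal axis) of the 9 members tested with edgeR, with 95% intervals, without a block (black) and blocked by replicate number (green). The interval of Gpc1 lies above 0 in both fits, and the interval of Sdc4 narrows from -0.39 to 0.66 to -0.01 to 0.26.

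The members also differed in how their variation fell among the libraries. The sum of squares of log2 CPM was divided into a part between treatments, a part between replicate numbers and a remainder, as a description without a test. For Gpc1 85.1% lay between treatments and 5.04% between replicate numbers. For Sdc4 96.9% lay between replicate numbers and 2.39% between treatments, and for Gpc3 the shares were 96.6% and 0.355%. Over all genes tested the median was 4.35% between treatments and 58.1% between replicate numbers. There are more replicate numbers than treatments, so their part takes a larger share even of unstructured variation. Shares of treatment and of replicate number are therefore not directly comparable. Gpc4 (80.1%), Sdc3 (80.2%) and Gpc6 (76.2%) also had larger parts between replicate numbers than the median gene, while Sdc1 (55.9%), Sdc2 (40.2%) and Gpc2 (16.0%) had smaller ones. What the replicate number stands for is not given in the sources used here.

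Gpc1 was among the steadier genes within groups. Groups that lie apart at a small fold change need a small SD, so this is not a separate trait of Gpc1. The pooled SD of its log2 CPM was 0.08, and 96.7% of the genes tested had a larger one. For Sdc1 and Sdc2, of similar abundance, these percentages were 85.9% and 84.1%. The SD was 0.44 for Sdc4, above which lay 18.3% of the genes. The other 7 members tested ranged from 0.12 for Sdc1 to 0.25 for Gpc2, and all of them but Gpc2 lay below the median of 0.22. Gpc1, Sdc1, Sdc2 and Sdc4 were each among the abundant transcripts by CPM, since only between 7.47% and 8.42% of the genes tested had a higher mean.

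**Figure D4:**
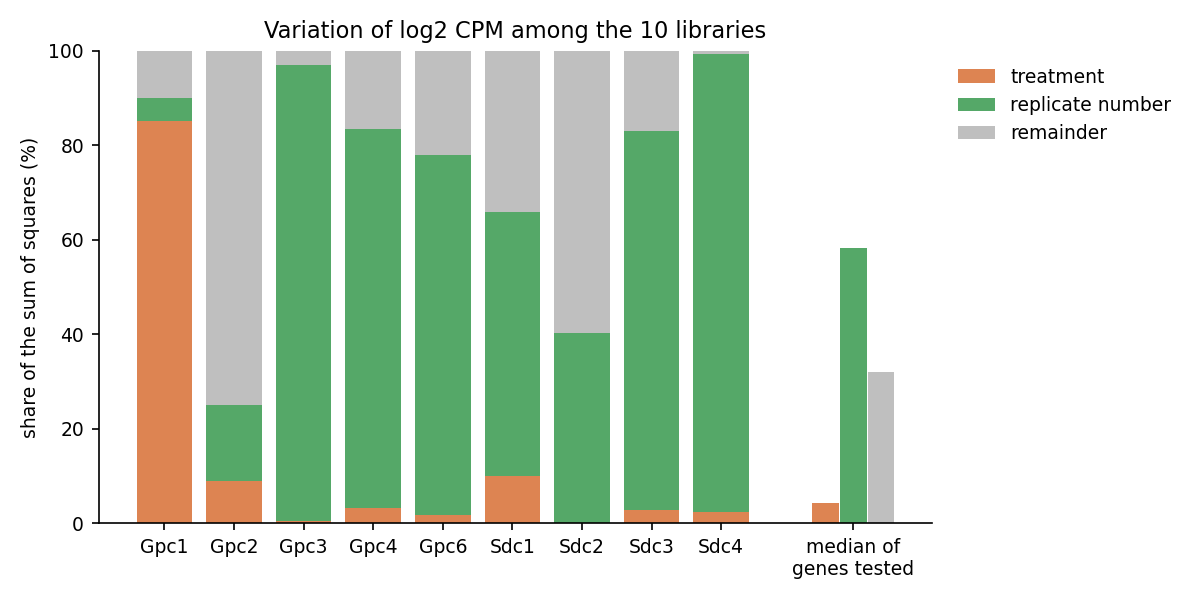
Shares (%) of the sum of squares of log2 CPM over 10 libraries that lie between treatments (orange), between replicate numbers (green) and in the remainder (grey), for each member tested. The 3 bars at the right are medians over all genes tested (4.35%, 58.1% and 32.0%), and Gpc1 is mostly orange (85.1%) while Sdc4 and Gpc3 are mostly green.

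The promoter table from RefSeq (GRCm38.p6, from 250 bases before to 50 after each start site) held 7 of the 10 members, without Gpc1, Gpc6 and Sdc2. It was searched on both strands for GCGTG, the core of the element that AHR binds with its partner ARNT. The core occurred in all 7 windows, between 1 and 4 times. Of all 32851 windows 32.4% held it, and of the 13958 windows within the same range of GC content as the members (54.7% to 77.7%) 52.3% did. Gpc5 alone set the lower end of that range. The other 6 windows had between 65.7% and 77.7% GC, so 52.3% is not a close match for them. For the 6 of these genes above the filter on low counts, the occurrence nearest the start site is shown with 8 bases to each side and the core (or its reverse, CACGC) in capitals, since these are the places where a response to FICZ through nearby elements would be looked for.
Gpc2: ttaggggaCACGCtcctattc
Gpc3: ctcctcgcCACGCccacaagg
Gpc4: gcccattcCACGCctttttcc
Sdc1: cctaggagGCGTGgaaggggg
Sdc3: gcggtgtcGCGTGccggtgtc
Sdc4: ccggcaggCACGCtgtgggcg
In genome coordinates these lie at chr5:138279920-138279940, chrX:52614006-52614026, chrX:52165037-52165057, chr12:8771219-8771239, chr4:130792453-130792473 and chr2:164443350-164443370, in that order, each written on the strand of its gene. None of these 6 genes passed the threshold with edgeR or DESeq2, with or without the block. A match is only a run of letters, and binding was not measured here.

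The genes that build, modify, release and read heparan sulfate were examined from lists drawn up with earlier results of these libraries known. Of 84 such genes, 8 chondroitin or dermatan sulfate cores included, 73 were tested, 33 with a positive and 40 with a negative log2 fold change, and none passed the threshold with edgeR (0.0211% of all genes did) or DESeq2 (0.0845%), nor in either tool with the replicate block. Unadjusted p-values at or under 0.05 in edgeR were found for 1 higher and 5 lower genes, against 1.33% and 3.49% of all genes. Blocked by replicate number, edgeR gave such p-values to 4 higher and 7 lower of the 73, against 354 and 309 of all 14251 genes. The median log2 fold change of the 73 was -0.02, and 0.01 over all genes tested.

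The tested enzymes of heparan sulfate synthesis and editing numbered 24. Of them 7 act on the linker on which the chain starts, 5 belong to the chain polymerase family and 12 modify the chain. The median log2 fold change was 0.01 for the linker enzymes, -0.03 for the polymerase family and -0.04 for the modifying enzymes, and 4 of 7, 1 of 5 and 5 of 12 were positive. In the linker list Fam20b, the xylose kinase, had 98.4 ± 7.04 CPM with DMSO and 103 ± 4.86 CPM with FICZ, and B3gat3, the glucuronosyltransferase, 34.8 ± 4.54 and 33.1 ± 2.25 CPM (SD, n = 5 each). Ext2, a subunit of the polymerase, had 166 ± 12.04 CPM with DMSO and 163 ± 12.02 CPM with FICZ, and its low-abundance relative Extl1 had 0.388 ± 0.194 and 0.259 ± 0.105 CPM. Differences in these 4 genes were within the SD of the DMSO group.

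The modifying enzymes with the smallest p were both 3-O-sulfotransferases of low abundance. Hs3st3b1 had 1.97 ± 0.983 CPM with DMSO and 1.03 ± 0.389 CPM with FICZ (log2 fold change -0.93, standard error 0.35, unadjusted p = 0.0206, adjusted p = 0.999 in edgeR). Hs3st1 had 2.78 ± 0.880 CPM and 1.80 ± 0.391 CPM (log2 fold change -0.63, standard error 0.24, adjusted p = 0.999 in edgeR), and was lower with FICZ in all 5 pairs. In both genes the libraries of the groups overlapped.

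Of 7 other carriers of heparan sulfate 5 had a positive log2 fold change (median 0.06). Among them Col18a1, the collagen that gives rise to endostatin, had 66.3 ± 15.9 CPM with DMSO and 49.6 ± 5.88 CPM with FICZ. It was lower in all 5 pairs, and the log2 fold change was -0.42 ± 0.15 (standard error), at an adjusted p of 0.999 in edgeR and 0.800 with the block. Nrp1, a co-receptor for VEGF and semaphorins, had 184 ± 36.4 and 199 ± 47.6 CPM. Of 9 tested genes of release and degradation 3 had a positive log2 fold change (median -0.08). Gpld1, a phospholipase that can cut GPI anchors and is made in liver, had between 5.00 and 22.05 CPM with DMSO and between 5.02 and 6.58 CPM with FICZ. Notum, which inactivates WNT proteins, had 2.39 ± 1.09 CPM with DMSO and 1.36 ± 0.489 CPM with FICZ. Notum was lower in all 5 pairs (adjusted p = 0.999 in edgeR, 0.604 with the block). The part of the hepatocyte transcripts in these values was not tested.

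For the 8 partners of the syndecan tail the median log2 fold change was 0.00 when rounded, and their values ran from -0.10 to 0.25. Tiam1, a Rac activator that binds the tail of Sdc1, had 30.5 ± 6.38 CPM with DMSO and 36.3 ± 3.19 CPM with FICZ, and Sdcbp (syntenin) 306 ± 59.7 and 289 ± 20.9 CPM. Of 20 ligands and receptors that bind heparan sulfate, 9 had a positive log2 fold change (median -0.03), and Fgf7 had 108 ± 21.3 CPM with DMSO and 139 ± 16.0 CPM with FICZ. It was higher in all 5 pairs, and the log2 fold change was 0.36 ± 0.14 (standard error), at an adjusted p of 0.999 in edgeR and 0.587 with the block. In DESeq2 the adjusted p of Fgf7 was 0.806, and 0.0770 with the block. Fgfr1 had 557 ± 41.3 and 513 ± 36.9 CPM and was lower in all 5 pairs. Over all genes tested 4.32% were higher and 2.81% lower in all 5 pairs. The genes named from each list were picked by smallest p, which favours such agreement, so these shares are not a like comparison for them.

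Proteoglycans with other sugar chains were examined beside them, and 5 of 8 were tested, with 2 positive (median -0.11). Vcan, the large chondroitin sulfate core of the matrix, had 653 ± 81.0 CPM with DMSO and 788 ± 119 CPM with FICZ and was higher in all 5 pairs. Its log2 fold change was 0.27 ± 0.12 (standard error), at an unadjusted p of 0.0510 and an adjusted p of 0.999 in edgeR. Cspg4 had 8.57 ± 1.10 and 7.46 ± 1.58 CPM. Neither passed the threshold with or without the block.

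**Figure D5:**
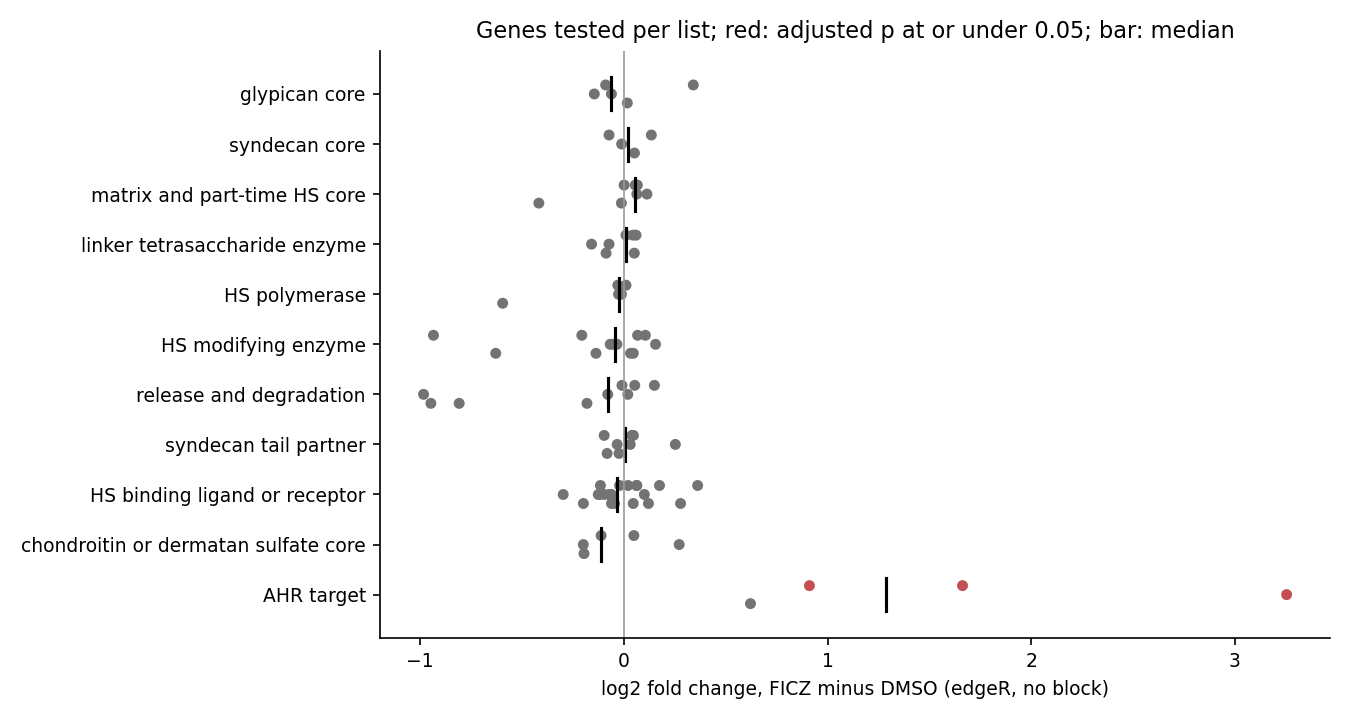
Log2 fold changes (FICZ minus DMSO, edgeR without a block, horizontal axis) of each gene tested in the heparan sulfate (HS) lists, the chondroitin list and 4 AHR targets named by the paper. Points are genes, black bars are list medians and red marks an adjusted p at or under 0.05, which 3 AHR targets reached and no gene of the other lists did.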

How the data were processed

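Bulk RNA of cultured ASPCs was sequenced in 10 libraries by the authors, who aligned the reads with STAR 2.7.7 to mm10 and used DESeq2. What the authors deposited is a table of whole-number counts by gene symbol, unnormalized. The counting program, annotation and strand setting are not given in the sources used here.

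EdgeR 4.0.16 (R 4.3.3) was run with TMM normalization, robust dispersions and its filter by expression, which left 14251 genes and 9 members. P-values of the quasi-likelihood test were adjusted by Benjamini-Hochberg over those genes, and 0.05 was the threshold. Single members were also compared by exact two-sided permutation of log2 CPM (prior count 2, 252 arrangements). CPM was divided by exon length from GENCODE M21 for levels between genes. Totals of 38328611 to 50210111 counts set the precision. Fits were tested on simulated data.

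The labels give both groups the replicate numbers 1 to 5. Deviations from group means correlated between same-numbered libraries in all 5 pairs (0.154 to 0.317, mean 0.252). The number was therefore treated as pairing the libraries, and edgeR and DESeq2 were also run with it as a block. The mean for other numbers was -0.06, but centring on group means ties this value to the first mean, so it is no separate comparison. Other alternatives were DESeq2 1.42.0, limma-voom (limma 3.58.1), other scalings and filters, dispersions without the robust option, a covariate for Alb (log2 CPM), and leaving out each library.

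The members and lists were chosen with earlier results of these data known. Named were all members, the 2 genes of each heparan sulfate or chondroitin list with the smallest unadjusted p, 4 AHR targets, and the 3 genes nearest in pattern to Gpc1 and Sdc4. The neighbours of Gpc3 were added after its values were seen. No protein sequences were used here.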

Additional observations from a re-analysis of the deposited data

Results flagged for a closer look

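Within 3 of the 19 groups of 5 libraries examined, 1 library stood off from the other 4, and chance gives this in about 1 of 20 groups. The measure is the distance from that library to its closest neighbour, divided by the distance between the highest and lowest library. For Gpc2 it was 0.805 in FICZ, where replicate 5 was the highest (1.99 CPM). For Gpc6 it was 0.737 in DMSO, where replicate 5 was the highest (72.8 CPM), and the hepatocyte markers were highest in the same library. For Sdc1 it was 0.736 in DMSO, where replicate 4 was the highest (205 CPM). The part of liver transcripts in these levels was not tested.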

How the results depend on the processing

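Over all genes, 3 passed the threshold with edgeR, between 1 and 4 when a library was left out, 8 with the replicate block, 17 with the block and Alb, 16 with DESeq2 and 26 with DESeq2 and the block; other settings gave 2 or 3. The count of 1 was reached without DMSO replicate 1, DMSO replicate 2, or FICZ replicates 1, 2 or 3. Among members 1 (Gpc1) passed with DESeq2 and 0 in every other setting run. The log2 fold change of Gpc1 was 0.34 with DESeq2 (adjusted p = 0.00343), and between 0.28 and 0.36 over 22 alternatives, with adjusted p up to 1.00; without 1 library it ran from 0.30 to 0.36. No other member passed in any setting run. Signs of small values turned: with Alb as a covariate Gpc4 was 0.0297, Gpc6 0.058, Sdc2 0.072, Sdc3 -0.0223 and Sdc4 -0.0318, and with Alb and the replicate block Gpc4 was 0.0143, Gpc6 0.0505, Sdc2 0.0748 and Sdc3 -0.0017. Sdc4 stayed positive with Alb and the replicate block, at 0.1642 (unadjusted p = 0.0430, adjusted p = 0.752 in edgeR). Gpc3 was -0.0044 with upper-quartile factors, -0.0015 with library size only and -0.0045 with the stricter filter. Without 1 library the log2 fold change ran from -0.0336 to 0.0616 for Gpc3, -0.132 to 0.0615 for Gpc6, -0.063 to 0.064 for Sdc2, -0.0129 to 0.1279 for Sdc3 and -0.0338 to 0.3072 for Sdc4, whose lowest value was reached without FICZ replicate 3, the library whose absence turned its sign. The sign of Gpc6 turned without DMSO replicate 5, that of Sdc2 without DMSO replicate 5 or FICZ replicates 2 or 4, that of Sdc3 without DMSO replicate 5 or FICZ replicate 4, and that of Gpc3 without DMSO replicates 2 or 3 or FICZ replicates 1 or 4. The range was -0.2883 to -0.0577 for Gpc2, which reached -0.4235 with Alb and the replicate block, -0.1639 to -0.0096 for Gpc4 and -0.1278 to -0.0112 for Sdc1, lowest without FICZ replicate 5, DMSO replicate 1 and FICZ replicate 5, and nearest 0 without DMSO replicates 3, 4 and 4. Calls of the genes named only for their nearness in pattern are not given. Among the members and the genes of all lists, markers and AHR targets included, the replicate block ended 1 edgeR call, that of Tiparp (adjusted p = 0.0509). It also ended the DESeq2 call of Gpc1 (adjusted p = 0.0803), and changed no other call among these genes. The cause of these moves was not tested. Depth limits statements on Gpc5, at most 3 counts, and Gpc2.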

Other observations

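The genes nearest to Gpc1 in pattern, by the root mean square difference of standardized log2 CPM over the 10 libraries, were Adam33 (0.175), Gsdmd (0.380) and Xdh (0.399), where the median gene of 12645 lay at 1.38. Adam33, a membrane metalloprotease, went from a mean of 18.2 CPM in DMSO to 25.7 CPM in FICZ, and Xdh, xanthine dehydrogenase, from 584 to 753 CPM. Adam33 and Xdh, like Gpc1, are among the genes raised by FICZ in a heatmap that the paper drew from these libraries. Of the sum of squares of Gpc1 85.1% lay between treatments, so genes close to it in pattern must differ between treatments too. Their place in that heatmap is therefore no separate evidence. Nearest to Sdc4 were Stambpl1 (0.187), Eaf1 (0.201) and Mir22hg (0.203), with means of 32.4 and 35.0, 87.7 and 94.8, and 31.5 and 31.8 CPM in DMSO and FICZ. Nearest to Gpc3 were Dlk1 (0.362), a known marker of adipocyte precursors, Rspo3 (0.402) and Smarcb1 (0.414). Dlk1 had a mean of 56.4 CPM in DMSO and 59.0 CPM in FICZ.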
